A study of Mus musculus with 7 samples.

Results

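The nuclear genes of oxidative phosphorylation were described in retinal microglia (rMG) of mice labelled Irf8 KO, with and without laser injury. The genes were chosen by name alone: every row of the deposited table whose symbol starts with Nduf followed by a subunit letter (a, b, c, s or v) and a digit, equals Sdha to Sdhd, or starts with Uqcr, Cox4 to Cox8 or Atp5, leaving out names with "-ps". This gave 82 of 40743 genes, all of them annotated as protein-coding. By name, 36 belong to complex I, 4 to complex II, 8 to complex III, 17 to complex IV and 17 to complex V. The genes counted with complex V include Atp5sl, which the gene annotation names Dmac2. A place in a complex by name thus does not show that the gene encodes a subunit of it. The name rule does not use the levels, but it was chosen with earlier results of these data known.

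Oxidative phosphorylation takes place in the inner mitochondrial membrane. Complex I (NADH dehydrogenase) and complex II (succinate dehydrogenase) pass electrons to ubiquinone, complex III (the cytochrome bc1 complex) passes them on to cytochrome c, and complex IV (cytochrome c oxidase) reduces oxygen. Complexes I, III and IV pump protons, and complex V (ATP synthase) uses the gradient to make ATP. Most subunits are encoded in the nucleus and a smaller number in mitochondrial DNA, so the complexes are built from products of both genomes. Several subunits of complex IV have alternative forms encoded by separate genes, which are known for their use in heart and muscle, testis or lung, and subunit c of complex V is encoded by several genes as well. In microglia, the balance between oxidative phosphorylation and glycolysis is commonly studied in relation to activation.

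By the study's description, all mice had the genotype Irf8-/- Cx3cr1 GFP/+ on a C57BL/6J background, so the stated germline deletion of Irf8 and the loss of one Cx3cr1 allele to GFP were shared by both groups. Of the 7 libraries, 3 were of unlasered animals and 4 were collected at 7 days after the laser, in the model of laser-induced choroidal neovascularisation (CNV). Cells were sorted as CD45low CD11b+ Cx3cr1 GFP+ Ly6C- Ly6G-, with 10000 cells on average pooled from 3 to 4 mice per library. The study describes the unlasered mice of its sequencing as adult. No exact age of the Irf8 KO pools was found in the sources used here. Only the central 70% of the retina was used from lasered mice, so laser injury and retinal region cannot be told apart. The sources do not say whether the mice of one pool were independent of those of another beyond the pooling, and p-values measure the spread between libraries. Libraries are named by group and number; the wild-type libraries were not analysed here.

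Libraries held 20427558 to 45919042 reads, so that 3 reads, taken as the floor, were worth 0.0653 to 0.147 CPM (reads of a gene scaled to a common library total). Irf8 itself had 463 to 582 CPM across the 7 libraries labelled Irf8 KO, with overlapping groups and with its reads listed jointly with Gm20388, and the libraries are therefore named by label. Summed markers of microglia were between 20928 and 27762 CPM, and 0 of 8 were called by limma or edgeR, 1 lower by DESeq2, and 1 higher and 1 lower at an unadjusted p under 0.05. Of 16 rod photoreceptor markers, 14 were called lower in lasered libraries; the number was 3, 5 and 7 without lasered libraries 2, 3 and 4, and 5 without the filter on low values. Their sum was between 2599 and 21380 CPM in the unlasered group, highest in library 2, and between 574 and 1339 CPM in lasered libraries, and none of the 16 was at 0 in all libraries. The summed cone and inner neuron markers reached 875 CPM in unlasered library 2 and lay between 209 and 268 CPM elsewhere, with 0 of 9 tested genes called by limma or edgeR, 1 by DESeq2 and 3 lower at an unadjusted p under 0.05. Of 6 tested Mueller glia and astrocyte markers, 4 had a fitted value below 0 (median -0.26) and 1, Gfap, was called higher, a call lost with edgeR and without any single library other than unlasered library 3. Their sum, most of it from Apoe, ranged from 52180 to 77219 CPM in the unlasered group and from 29450 to 72629 CPM in the lasered group. Since Apoe sets most of this sum, it was not taken as a measure of Mueller glia or astrocytes. Pigment epithelium and endothelium markers, 2 tested of each, gave 0 calls by limma, edgeR or DESeq2 and 0 at an unadjusted p under 0.05, with sums of at most 17.7 and 49.8 CPM. Monocyte and neutrophil markers summed to between 11.6 and 180 CPM, with the highest sums in lasered libraries 2 and 1 and, of 4 tested, 0 called by limma or edgeR, 1 higher by DESeq2 and 1 higher at an unadjusted p under 0.05, and erythrocyte markers to 84.8 CPM in lasered library 1 against at most 1.42 CPM elsewhere. The part of these other cells in the results below was not tested. In bulk libraries, fewer cells of a type and less RNA per cell cannot be told apart. Over all genes tested, limma called 6.93%, edgeR 7.24% and DESeq2 13.2% in either direction.

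The promoters of the members, taken from RefSeq (GRCm38.p6, 250 bases before to 50 after a start site), were searched for short motifs of factors known for mitochondrial genes. Of the 82 members, 65 matched by symbol, with 70 promoters. The letters GCGCATGCG, the motif of NRF1, were present on either strand in 8 promoters, or 11.4%, against 1.75% of all 32851 promoters. AAGATGGCG, a YY1 motif, was present in 7 promoters, against 1.40% of all. CCGGAAGT, an ETS motif of the kind bound by GABPA, was present in 5 promoters, or 7.14%, against 3.89%. At least 1 of the 3 motifs occurred in 19 of the 65 genes, or 29.2%, against 7.48% of 27025 genes. A match describes letters only. The following 30-base windows are shown because they carry the motifs of members described below or the repeated position of the YY1 letters, with the matching letters of either strand in capitals (build GRCm38.p6; 5′ to 3′ on the strand of the gene).
Atp5g2, NRF1, chr15:102671070-102671099, minus strand: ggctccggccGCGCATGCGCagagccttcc
Cox6a1, NRF1, chr5:115349101-115349130, minus strand: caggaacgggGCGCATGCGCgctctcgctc
Atp5k, NRF1, chr5:108434430-108434459, minus strand: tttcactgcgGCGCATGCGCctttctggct
Ndufa9, YY1, chr6:126849096-126849125, minus strand: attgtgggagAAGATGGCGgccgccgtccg
Ndufs7, YY1, chr10:80249463-80249492, plus strand: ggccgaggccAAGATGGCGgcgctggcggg
Atp5j2, YY1, chr5:145191499-145191528, minus strand: ccaggacttcAAGATGGCGtcactcggtga
In the NRF1 windows shown, GCGCATGCGC is its own reverse complement, so that both strands match. Of the 7 YY1 matches, 6 began 23 to 36 bases after the start site and 1, in Atp5j, lay before it.

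Of the 82 members, 77 passed the filter on low values (at least 1 CPM in at least 3 libraries), and 2 were called at an adjusted p under 0.05 (limma on log2(CPM + 1), Benjamini-Hochberg adjustment over 17496 genes). Cox7a2l was higher and Cox6a2 lower after laser injury. Both belong to complex IV. Among all genes tested 6.93% were called, 3.86% higher and 3.07% lower, so the share of members called was below the background. At an unadjusted p under 0.05 there were 10 members, 3 higher and 7 lower, against 22.7% of all genes tested. The groups did not overlap for 7 of the 77 members, 3 higher and 4 lower, against 21.0% of all genes tested (10.4% higher and 10.7% lower). The edgeR test called the same 2 members, against 7.24% of all genes.

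The fitted fold changes of the members lay close to 0. The median log2 fold change was -0.05 over the 77 members and -0.01 over all genes tested, with 31 members above 0 and 46 below. With TMM scaling, which moved the median of all genes to 0.10, the median of the members was 0.06 and thus above 0, and the share of all calls that were higher was 68.9% in place of 55.7%. By complex, the median was -0.08 for complex I, 0.05 for complex II, -0.03 for complex III, -0.04 for complex IV and -0.04 for complex V. Of the 75 members not called, the 95% interval lay within 2-fold in either direction for 73 and within 1.5-fold for 52, with half-widths between 0.26 and 0.53 on the log2 scale. In simulated data the test recovered 0% of 1.5-fold and 23.8% of 2-fold changes, so a member not called may still have changed.

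**Figure D1:**
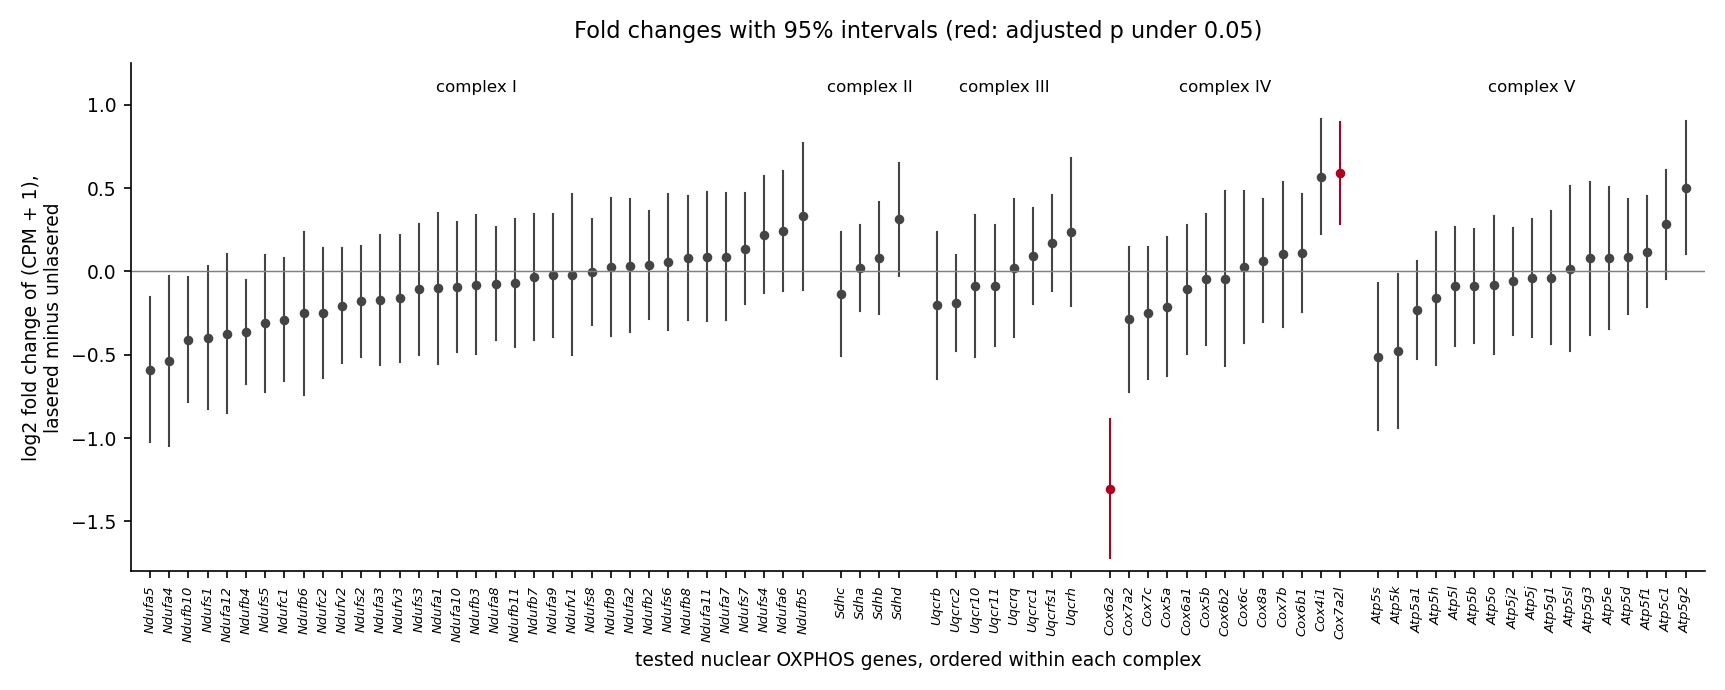
The y axis gives the log2 fold change of CPM + 1, lasered minus unlasered, for the 77 tested genes ordered within each complex on the x axis; points are fitted values and lines 95% intervals. Only Cox6a2 (-1.30) and Cox7a2l (0.59), in red, had an adjusted p under 0.05, and Cox4i1, Atp5g2, Ndufa5 and Ndufa4 stand at the edges of their complexes.

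Summed over all 82 genes, the level was 6760 ± 1153 CPM (SD, n = 3) in unlasered and 6661 ± 291 CPM (SD, n = 4) in lasered libraries, on average 0.670% of all reads. The unlasered libraries spread more widely than the lasered ones. Their sums were 6986, 7784 and 5512 CPM in libraries 1, 2 and 3, against 6559, 7043, 6689 and 6351 CPM in lasered libraries 1 to 4. The ratio of lasered to unlasered means was 0.926 for complex I, 1.05 for complex II, 0.996 for complex III, 1.13 for complex IV and 0.954 for complex V. None of these sums separated the groups.

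The members moved together between libraries of the same group. Unlasered library 3 was the lowest of the 3 unlasered libraries for 74 of the 77 members, or 96.1%, against 38.3% of all genes tested. Unlasered library 2 was the highest for 59 members, or 76.6%, against 32.5% of all genes. Among lasered libraries, library 2 was the highest for 47 members, or 61.0%, against 27.4% of all genes, and library 4 the lowest for 38, or 49.4%, against 36.4%. Relative to the unlasered mean, the median member stood at 1.06, 1.16 and 0.795 in unlasered libraries 1, 2 and 3, and at 0.962, 1.07, 0.932 and 0.893 in lasered libraries 1 to 4. The shift between unlasered libraries 2 and 3 was thus larger than that between the groups. Unlasered library 3 was also the lowest for 81 of 84 cytosolic and 63 of 75 mitochondrial ribosomal protein genes, of which the mitochondrial ones were most often highest in unlasered library 1 (42 of 75). Rod markers were highest in unlasered library 2 but lowest in library 1 of the unlasered libraries. Without unlasered library 3, the median log2 fold change of the members was -0.20 and 5 were called, all lower (Cox6a2, Ndufa12, Ndufa4, Ndufa5 and Ndufb10), against 8.04% of all genes. Without unlasered library 2 it was 0.06, with the 2 calls unchanged.

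**Figure D2:**
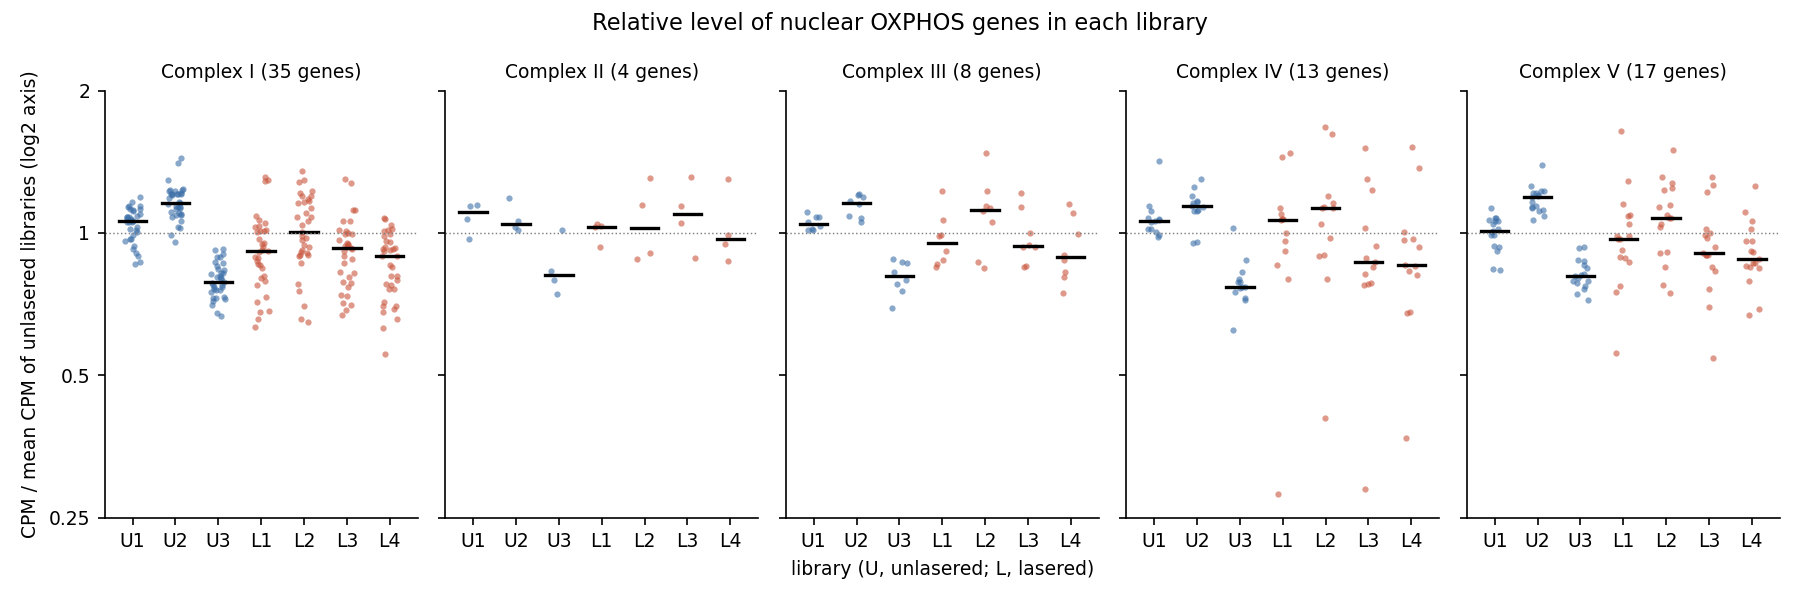
Each point is 1 tested gene, plotted by complex; the y axis (log2 axis) gives its CPM divided by its mean over the unlasered libraries, the x axis the library, and black lines are medians within the complex. Unlasered library 3 lies below 1 for 75 of 77 genes, while the medians of the lasered libraries over all 77 genes, from 0.893 to 1.07, lie between those of unlasered libraries 3 and 2.

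Cox7a2l (ENSMUSG00000024248, GRCm38 chromosome 17, 83501918 to 83517330, minus strand) encodes a protein of the subunit 7a family. In general this protein is known for joining complexes III and IV into supercomplexes. Whether it has this role in mice of the strain used here was not tested, and RNA levels do not show it. The level of Cox7a2l was 67.2, 76.8 and 59.3 CPM in unlasered libraries 1, 2 and 3. In lasered libraries 1 to 4 it was 99.9, 113, 102 and 92.8 CPM. Every lasered library was above every unlasered one. The means were 67.8 ± 8.74 CPM (SD, n = 3) and 102 ± 8.48 CPM (SD, n = 4), a ratio of 1.51, and the log2 fold change was 0.59 (SE 0.14, limma adjusted p = 0.0371). The call was lost when any single library other than unlasered library 2 was left out (adjusted p 0.0511 to 0.111), while the fold change stayed between 0.50 and 0.68. The call of Cox7a2l was also lost without the filter on low values and under a block on replicate number. A processed pseudogene, Gm6969, matched 342 bases of its transcript without a mismatch and added 12.2 to 24.7 CPM; with the copies added the log2 fold change was 0.57 (adjusted p = 0.0457). The 250 bases before its RefSeq start site (chr17:83514334-83514583, GRCm38.p6, minus strand, 52.0% G or C), shown as the sequence of the member that was called higher, hold none of the 3 motifs and are therefore in lower case throughout.
Cox7a2l: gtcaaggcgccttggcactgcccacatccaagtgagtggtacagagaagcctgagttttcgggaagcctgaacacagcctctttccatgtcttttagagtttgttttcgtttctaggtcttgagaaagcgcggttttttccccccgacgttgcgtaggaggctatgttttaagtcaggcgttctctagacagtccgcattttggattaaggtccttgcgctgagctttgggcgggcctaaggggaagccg

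Cox6a2 (ENSMUSG00000030785, chromosome 7, 128205435 to 128206387, minus strand) encodes the form of subunit 6a known from heart and skeletal muscle. It was a gene of low level. Unlasered libraries 1, 2 and 3 had 8.47, 7.97 and 8.49 CPM, which are 173, 273 and 306 reads. Lasered libraries 1 to 4 had 2.33, 3.39, 2.40 and 3.07 CPM, or 103, 152, 110 and 114 reads. The unlasered values were nearly equal, and all lay above the lasered ones. The summed rod markers were also higher in every unlasered library, from 2599 to 21380 CPM, than in any lasered one, and their part in this difference was not tested. The mean fell from 8.31 ± 0.294 to 2.80 ± 0.515 CPM, a ratio of 0.336, with a log2 fold change of -1.30 (SE 0.19, limma adjusted p = 0.00879), which the added 1 CPM makes smaller than the ratio of the levels. The call held without any single library (adjusted p 0.0183 to 0.0345) but not under a block on replicate number, where 3 of 17496 genes were called. Its exons overlap those of Itgad on the other strand, and the library kit does not mark strand, so reads of both genes cannot be told apart there. Itgad, an integrin gene, was listed at 7.57 to 14.0 CPM, with a log2 fold change of -0.17 (adjusted p = 0.709).

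**Figure D3:**
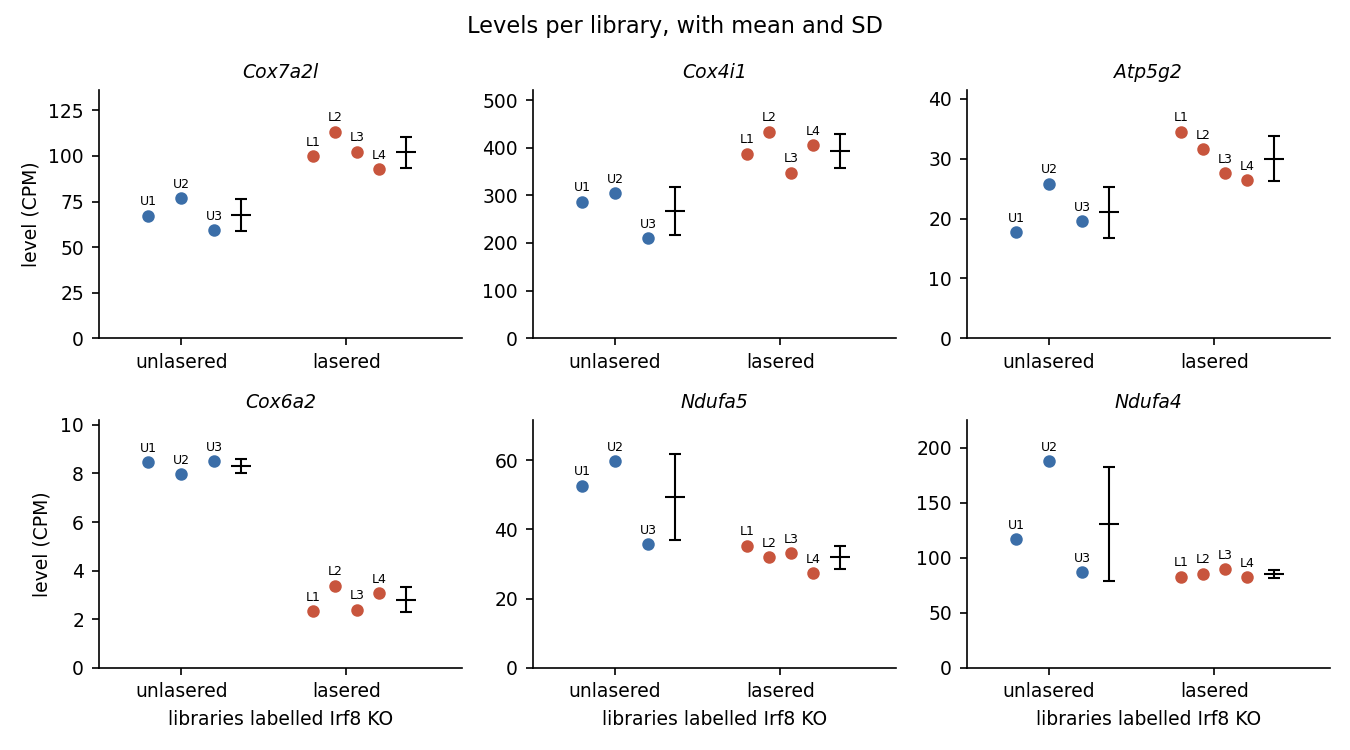
Each panel gives the CPM of 1 gene in each library on the y axis, with bars for mean ± SD, by group on the x axis (3 unlasered, 4 lasered). Cox7a2l, Cox4i1 and Atp5g2 were higher in every lasered library than in any unlasered one, Cox6a2 and Ndufa5 were lower, and the Ndufa4 difference rests on the 188 and 117 CPM of unlasered libraries 2 and 1.

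Cox4i1, the general form of the large nuclear subunit 4 of cytochrome c oxidase, came close to the threshold. It had the highest level per length of all members, 219 CPM per kilobase of exon. Its level was 287, 305 and 210 CPM in unlasered libraries 1, 2 and 3, and 388, 433, 347 and 405 CPM in lasered libraries 1 to 4. The groups did not overlap. The log2 fold change was 0.57 (SE 0.15), with a limma adjusted p of 0.0579, and it passed the threshold with TMM or median-of-ratios scaling and with DESeq2 (adjusted p 0.0294, 0.0377 and 0.0183), where 8.67%, 8.22% and 13.2% of all genes were called. All of its reads are listed jointly with Gm20388, a gene model with which the reads of Irf8 are listed as well, and its exons overlap those of Emc8 on the other strand. Gm20388 had 874 to 1045 CPM, with a log2 fold change of 0.09, and Emc8 had 19.7 to 28.1 CPM, with one of -0.07.

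Among alternative subunits, the forms known from other tissues were minor, and their shares were computed from levels per exonic length. Cox6a2 made up 6.16, 5.32 and 8.40% of the Cox6a pair in unlasered libraries 1, 2 and 3 and 2.06, 2.60, 2.47 and 2.64% in lasered libraries 1 to 4. Its partner Cox6a1, the general form, had means of 125 ± 26.4 CPM without and 115 ± 13.5 CPM with laser injury, with overlapping values and a log2 fold change of -0.11 (95% interval -0.49 to 0.28). Cox7a2l made up 37.7, 35.8 and 42.4% of the Cox7a family in unlasered libraries 1, 2 and 3 and 51.6, 53.5, 54.6 and 55.0% in lasered libraries 1 to 4. Cox7a2, the general form of subunit 7a, had means of 68.5 ± 17.9 and 54.9 ± 6.46 CPM, with a log2 fold change of -0.29 (95% interval -0.72 to 0.15). Both shares separated the groups without overlap. As descriptions of genes picked out by the same contrast, they were not tested.

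Cox4i2, the form of subunit 4 known from lung and low oxygen, was below the filter and was not tested. It had 16, 52 and 37 reads in unlasered libraries 1, 2 and 3 (0.783, 1.52 and 1.03 CPM) and 16, 17, 18 and 20 reads in lasered libraries 1 to 4 (0.362, 0.379, 0.392 and 0.539 CPM). These levels did not overlap between groups. Cox4i2 was under 1% of the Cox4 pair in every library. Ndufa4l2, known as a gene induced by low oxygen, had 0 to 10 reads per library and only 2 libraries above the floor of 3 reads, both unlasered. Cox8b, the muscle form of subunit 8, had 3 reads in unlasered library 1 and 0 elsewhere, while Cox8a was at 83.9 to 126 CPM. Cox7a1, another muscle form, was at 0.479 to 1.27 CPM and Cox7b2, a testis form, at 0.108 to 1.22 CPM, and both overlapped between groups. Cox6b2, also known from testis, passed the filter with 1.72 to 3.92 CPM and a log2 fold change of -0.04 (95% interval -0.57 to 0.48). The general forms Cox6b1, Cox7b and Cox8a had log2 fold changes of 0.11, 0.10 and 0.06. Cox8c was not in the table.

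**Figure D4:**
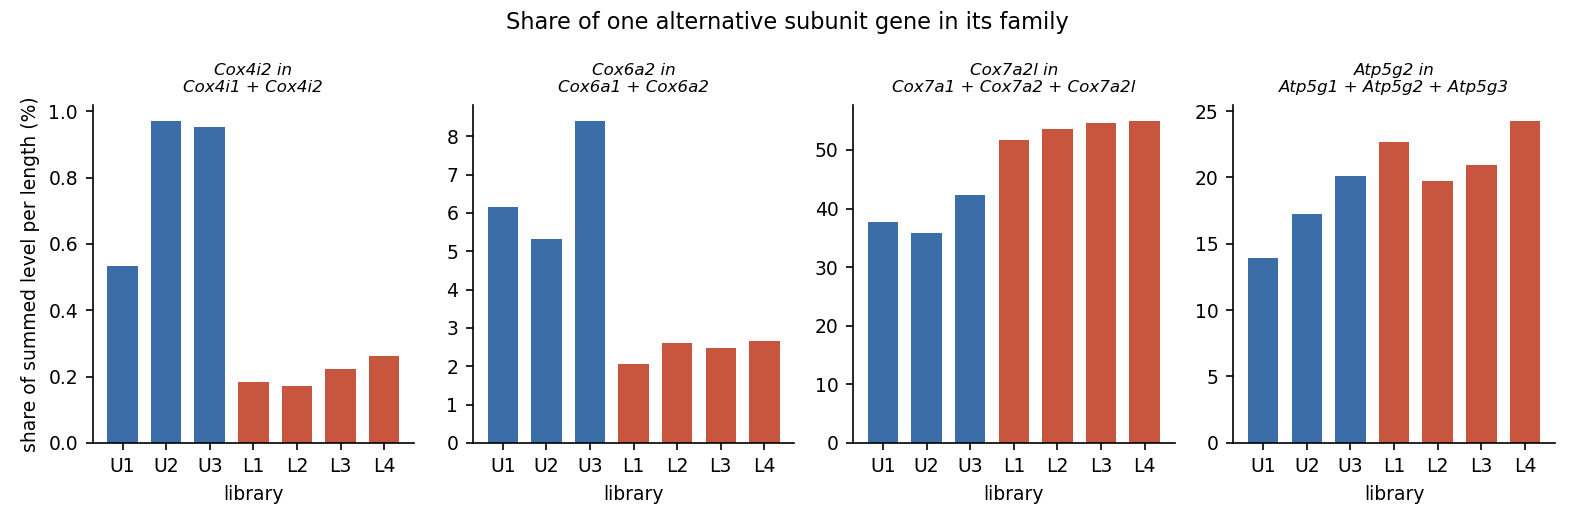
Bars give, for each library on the x axis (blue unlasered, red lasered), the percentage of the summed level per exonic length of a family that comes from 1 gene. Cox4i2 and Cox6a2 took smaller shares in every lasered than in any unlasered library and Cox7a2l a larger one, whereas the Atp5g2 shares of 17.1 ± 3.09% and 21.9 ± 1.98% overlapped.

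Of 35 tested complex I genes, 0 were called by limma or edgeR and 1, Ndufa5, by DESeq2, which called 13.2% of all genes. At an unadjusted p under 0.05 there were 4, all lower, against 11.6% of all genes lower. Ndufa5, an accessory subunit of the matrix arm, had the lowest fold change of the complex. It had 52.7, 59.7 and 35.8 CPM in unlasered libraries 1, 2 and 3 and 35.2, 31.9, 33.1 and 27.3 CPM in lasered libraries 1 to 4. The groups did not overlap, but unlasered library 3 and lasered library 1 were nearly equal. The log2 fold change was -0.59 (SE 0.19, limma adjusted p = 0.105). Ndufa4, counted with complex I by its name although its protein is now assigned to cytochrome c oxidase, had 117, 188 and 87.0 CPM in unlasered libraries and 82.7, 85.7, 89.8 and 82.3 CPM in lasered libraries. The lasered values were close to one another and overlapped with unlasered library 3, the highest value was in unlasered library 2, where rod markers were also highest, and the log2 fold change was -0.54 (adjusted p = 0.196). Ndufb10 (-0.41, adjusted p = 0.183) and Ndufb4 (-0.36, adjusted p = 0.155), both subunits of the membrane arm, complete the 4; they are named after their values were seen.

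Ndufb5, of the membrane arm, had the highest fold change, 0.33 (95% interval -0.11 to 0.77). Its level was 64.2, 72.5 and 43.1 CPM in unlasered libraries 1, 2 and 3 and 78.8, 80.9, 77.8 and 60.5 CPM in lasered libraries 1 to 4. Lasered libraries 1, 2 and 3 stood above all unlasered ones, and library 4 did not. Ndufa2, an accessory subunit of the matrix arm, was the member of complex I with the highest level per exonic length, 140 CPM per kilobase, while Ndufa4 and Ndufb9 were higher over the longest coding transcript (171 and 144 CPM per kilobase). The Ndufa2 means of 79.4 ± 18.7 and 80.2 ± 8.62 CPM overlapped, with a log2 fold change of 0.03 (95% interval -0.36 to 0.43). Over the complex the fitted values ran from -0.59 to 0.33, with 24 of 35 below 0.

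None of the 4 genes of complex II was called by limma, edgeR or DESeq2, and 0 had an unadjusted p under 0.05. Sdha, the catalytic flavoprotein subunit, had 347 to 362 CPM in the unlasered group and 323 to 408 CPM in the lasered group, with a log2 fold change of 0.02 (95% interval -0.24 to 0.28). It did not share the low value of unlasered library 3, in which the median member stood at 0.795 of the unlasered mean. Sdhd, a membrane anchor and the highest of the complex per length with 135 CPM per kilobase, had 167, 150 and 121 CPM in unlasered libraries and 151, 191, 193 and 190 CPM in lasered libraries. Lasered library 1 fell among the unlasered values. The log2 fold change was 0.31 (95% interval -0.02 to 0.65, adjusted p = 0.253). Sdhc, the other anchor, had the lowest value, -0.13 (95% interval -0.51 to 0.24).

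In complex III, 0 of 8 genes were called by limma, edgeR or DESeq2, and 0 had an unadjusted p under 0.05. Fitted values lay between -0.20 for Uqcrb, a small subunit at the ubiquinone site, and 0.24 for Uqcrh, the hinge protein near cytochrome c. Uqcrb had means of 71.4 ± 19.3 and 60.4 ± 5.52 CPM, and Uqcrh of 65.6 ± 13.0 and 77.7 ± 15.7 CPM. Both differences were smaller than the spread between unlasered libraries. Uqcr10, a small accessory subunit, was the highest per exonic length with 79.4 CPM per kilobase; over the longest coding transcript Uqcrb and Uqcrh were higher. Its levels were 48.2 ± 10.6 and 45.0 ± 6.96 CPM.

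Complex V had 17 tested genes, of which 0 were called by limma, edgeR or DESeq2 and 3 had an unadjusted p under 0.05, 1 higher and 2 lower, against 11.0% and 11.6% of all genes. Atp5g2 was the higher one. With Atp5g1 and Atp5g3 it encodes subunit c of the membrane ring, and the 3 genes give the same mature protein with different import sequences. Its level was 17.7, 25.8 and 19.6 CPM in unlasered libraries 1, 2 and 3 and 34.5, 31.6, 27.6 and 26.4 CPM in lasered libraries 1 to 4. The groups did not overlap, with unlasered library 2 just below lasered library 4. The log2 fold change was 0.50 (SE 0.18, adjusted p = 0.126). Transcribed or processed pseudogenes Gm10175 and Gm10231 match its transcript without a mismatch over 645 and 441 bases, and 68.2% of the reads of the gene and its copies were listed under copies. The copies together went from 44.1 ± 7.89 to 64.9 ± 7.32 CPM. Reads of the matching stretches cannot be placed with certainty, so this is not a second observation beside the gene. The sum of gene and copies had a log2 fold change of 0.54 (limma adjusted p = 0.0747).

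Atp5g3, the most abundant c subunit gene per length, had a log2 fold change of 0.08 (95% interval -0.38 to 0.54) and Atp5g1 of -0.04 (-0.44 to 0.36). The Atp5g1 share of the Atp5g family per exonic length was 7.44 ± 0.287% in unlasered and 6.52 ± 0.520% in lasered libraries. These shares did not overlap between groups, whereas those over the longest coding transcript did. Of the reads listed for Atp5g1 and its copies, 59.3% were under copies. Atp5s, which carries the family name but is a coupling factor rather than a core subunit, had the lowest value, with 15.7, 17.1 and 11.2 CPM in unlasered and 8.16, 11.0, 10.2 and 10.1 CPM in lasered libraries. Its groups did not overlap, and the log2 fold change was -0.51 (SE 0.20, adjusted p = 0.156). Atp5k, subunit e, whose NRF1 window is shown above, was the other lower gene (-0.48, adjusted p = 0.206) and is named after its values were seen. Atp5a1, the alpha subunit, was the highest of the complex per exonic length with 168 CPM per kilobase, and over the longest coding transcript Atp5b, the catalytic beta subunit, was higher. The Atp5a1 means were 577 ± 61.9 and 491 ± 54.2 CPM, with a log2 fold change of -0.23 (95% interval -0.52 to 0.06).

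Copies limit several of these values. BLAST of the members' transcripts found 71 copies with at least 90% identity over at least 200 bases for 31 members, 68 of them annotated as pseudogenes. Of these copies, 59 were listed in the deposited data, for 26 members, and for 22 members they held over 10% of the summed reads. For 5 members (Atp5g2, Atp5l, Atp5g1, Ndufs3 and Atp5h) they held over 50%. With copies added to their member the same 2 members were called.

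Of the 13 mitochondrially encoded subunits of the same complexes, 3 were called higher and 0 lower, against a background of 3.86% higher, and all 13 had a fitted log2 fold change above 0, with a median of 0.57. The called genes were mt-Co1 (0.87, SE 0.15, limma adjusted p = 0.0158) and mt-Co3 (0.92, SE 0.19, adjusted p = 0.0281), which encode core subunits of complex IV, and mt-Atp8 (0.66, SE 0.15, adjusted p = 0.0374), a subunit of complex V. mt-Co1 had 760, 980 and 917 CPM in unlasered libraries 1, 2 and 3 and 1792, 1677, 1772 and 1271 CPM in lasered libraries 1 to 4. Lasered library 4 was the lowest of the lasered libraries, and still above all unlasered ones. With all libraries edgeR called 3 and DESeq2 5 of the 13, against 7.24% and 13.2% of all genes in either direction. Without lasered library 2 or lasered library 3, 0 were called by limma, without lasered library 1 or without the filter on low values there was 1 call, and without unlasered library 1 there was 1 call and 1 of the 13 fell below 0. Leaving out genes with joint reads kept 5 of the 13, with 2 calls.

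Set against the nuclear genes, the mitochondrially encoded sum was 5266 ± 1027 CPM without and 7909 ± 1208 CPM with laser injury, a ratio of 1.5, while the nuclear ratio was 0.985. The mitochondrially encoded sums overlapped, with 6178 CPM in lasered library 4 and 6329 CPM in unlasered library 2. The mitochondrial to nuclear ratio of sums was 0.613, 0.813 and 0.942 in unlasered libraries 1, 2 and 3 and 1.28, 1.15, 1.34 and 0.973 in lasered libraries 1 to 4. Unlasered library 3 and lasered library 4 were close, and the groups did not overlap. In complex IV this ratio was 2.07 ± 0.516 in unlasered and 3.22 ± 0.575 in lasered libraries, and in complex I 0.694 ± 0.163 and 0.952 ± 0.157, with overlapping libraries in both. In complex V it was 0.347 ± 0.0559 and 0.543 ± 0.0621 without overlap. The difference between the nuclear and the mitochondrial genes was not tested.

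**Figure D5:**
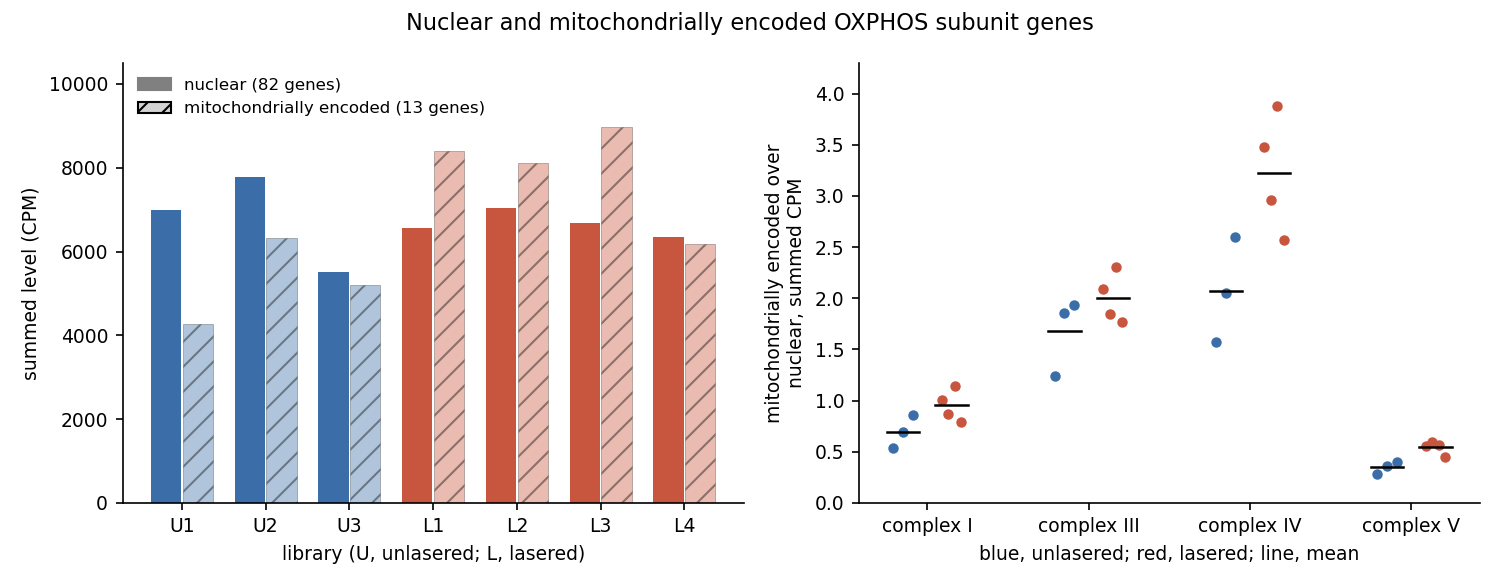
Left, summed CPM (y axis) of 82 nuclear (plain bars) and 13 mitochondrially encoded genes (hatched bars) in each library (x axis); right, the ratio of the sums for complexes I, III, IV and V, with points for libraries and lines for means. In lasered libraries 1, 2 and 3 the mitochondrially encoded sum exceeded the nuclear one, and in lasered library 4 and all unlasered libraries it did not.

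Subunits and carriers that the name rule misses, such as Ndufab1, Cyc1 and Cycs, gave 0 calls of 8 tested by limma, edgeR and DESeq2, and 0 at an unadjusted p under 0.05. Assembly factors gave 0 of 49 by each tool, with 1 higher and 1 lower at an unadjusted p under 0.05. Genes of the tricarboxylic acid cycle and pyruvate dehydrogenase, which supply NADH and succinate, gave 0 of 16 by each tool, with 1 higher and 1 lower unadjusted. Of 17 regulators of mitochondrial gene expression, 1 was called, Ppargc1a, a coactivator of such genes. It was at 2.25, 16.6 and 7.50 CPM in unlasered and at 1.97, 1.02, 0.174 and 0.215 CPM in lasered libraries (log2 fold change -2.20, SE 0.55, limma adjusted p = 0.0456). Its highest value was in unlasered library 2, where rod markers were also highest. It was not called by edgeR, without any single library other than unlasered library 1, with a pseudocount of 0.1 or without the filter. Under a block on replicate number it was not called either. With genes of joint reads left out, 0 of the 15 regulators kept were called. Import, channel and carrier genes gave 0 of 20 by limma and edgeR, 1 lower by DESeq2 and 2 lower unadjusted. Glycolysis genes gave 0 of 15 by limma, 1 lower each by edgeR and DESeq2 and 3 lower unadjusted. Mitochondrial ribosomal proteins gave 0 of 75 by limma and edgeR, 1 lower by DESeq2, and 1 higher and 6 lower unadjusted. Over all genes tested, limma called 6.93%, edgeR 7.24% and DESeq2 13.2%. At an unadjusted p under 0.05 (limma), 11.0% of all genes were higher and 11.6% lower.

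Cytosolic ribosomal protein genes did not follow the members. They shared the low value of unlasered library 3 with them, but 45 of 84 were called higher and 0 lower, against 3.86% of all genes called higher, with a median log2 fold change of 0.68 against -0.05 for the members. The number called higher was 44 with edgeR and 57 with DESeq2, which called 7.24% and 13.2% of all genes in either direction. With limma it fell to 17, 20 and 29 without lasered libraries 2, 1 and 3 and to 24 without the filter. The difference between the lists was not tested.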

How the data were processed

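RNA of sorted retinal microglia from mice labelled Irf8 KO was sequenced by the authors after SMARTer v4 amplification, which does not mark strand, and Nextera XT library preparation. Per the study's methods, duplicate reads were removed with FastUniq and reads were aligned with Bowtie2 and counted per gene with HTSeq (GRCm38, Ensembl annotation version 90). The submitters' processing notes also list FastQC, cutadapt and DESeq2. Although the header of the deposited table says TPM, its values are CPM, read counts over the library total without regard to gene length: scaled back by these totals, 100% of values were whole within 0.1 read. Libraries held 20427558 to 45919042 reads, and the floor of 3 reads covers counting error only.

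Groups came from the labels, 3 unlasered and 4 lasered libraries. The main test was limma 3.58.1 in R 4.3.3 (trend and robust, statmod 1.5.0) on log2(CPM + 1) for genes that reached 1 CPM in 3 or more libraries, adjusted by Benjamini-Hochberg over 17496 genes. Fold changes are on that scale and understate changes of low genes. Alternatives used edgeR 4.0.16 and DESeq2 1.42.0 on the recovered reads, other scalings, pseudocounts and filters, and each library left out. Copies were found with BLAST+ 2.17.0 in GENCODE transcripts of GRCm38. Python 3.11.15, pandas 2.3.3, numpy 2.4.6 and matplotlib 3.10.9 were used, and the test was run on simulated data first. With 190 to 193 changed genes among those tested, limma recovered 0% of 1.5-fold, 23.8% of 2-fold, 83.2% of 4-fold and 98.4% of 8-fold changes. Of the calls at 2-fold, 4-fold and 8-fold, 20.7%, 10.2% and 8.33% were of unchanged genes. These shares belong to the simulated settings. In 7 members, reads were listed jointly with an overlapping gene, in 1 of them (Cox4i1) all reads, and 25 overlap an exon on the other strand.

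Named members were those called, the highest per length, highest and lowest by fold change in each complex, and the alternative subunit families. Sdha, Ndufb10, Ndufb4 and Atp5k were described in addition and fall outside these rules. The members and gene lists were chosen with earlier results of these data known. Wild-type libraries were not analysed here.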

Additional observations from a re-analysis of the deposited data

Results flagged for a closer look

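Of 32 member and complex levels examined over the 4 lasered libraries, 4 held a library whose gap to the nearest other library was large for the range of its group by Dixon's criterion, which chance gives in about 1 of 20 groups. Cox4i2 was highest in lasered library 4, with 0.539 CPM. Ndufb5 was lowest in lasered library 4, with 60.5 CPM. Sdhd was lowest in lasered library 1, with 151 CPM. The summed level of complex II was highest in lasered library 3, with 830 CPM.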

How the results depend on the processing

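Of 17496 genes, 1213 were called with all libraries; leaving out single libraries gave 262 to 1406, and 262, 388, 407 and 781 without lasered libraries 2, 3, 1 and 4. Without the filter on low values 385 were called and with DESeq2 2318. Among the members, leaving out single libraries gave 1 to 5 calls in place of 2, the highest number without unlasered library 3, where 8.04% of all genes were called. Without the filter there was 1 call, Cox6a2, and with DESeq2 there were 4, with Cox4i1 and Ndufa5 added. The study's own thresholds (log2 fold change beyond 1.5, mean of at least 100) left 0 members. The edgeR test, a pseudocount of 0.1, thinning to the smallest library and, chosen after seeing the data, leaving out genes with joint reads or adding copies gave 2 calls each, Cox7a2l and Cox6a2. The planned use of reads listed for a gene alone was not run, since joint reads cannot be separated.

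The deviations of same-numbered libraries correlated at -0.18, -0.13 and -0.02 across genes, with no positive value. The labels do not say whether equal numbers mean shared preparation, and correlations over so few libraries cannot settle it. Under a replicate block, in which lasered library 4 has no counterpart, 3 genes and 0 members were called (adjusted p 0.0914 for Cox6a2 and 0.121 for Cox7a2l), as were 0 mitochondrially encoded, cytosolic ribosomal and rod genes. Complex II sums differed by 101 CPM with TMM scaling, against 36.1 CPM.

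Of 23 named genes tested, 10 changed sign in 23 of their alternatives, none of them called, and the cause was not tested. Atp5g1 was at 0.021 with the replicate block, 0.022 with copies added, 0.042 with median-of-ratios and 0.081 with TMM scaling. With TMM scaling Cox6a1 was at 0.017, Cox6b2 at 0.047 and Uqcr10 at 0.036. Cox6b2 was at 0.017 with median-of-ratios scaling and at 0.017 with thinning. Without single libraries, log2 fold changes ranged from -0.17 to 0.094 for Atp5g1, -0.12 to 0.22 for Atp5g3, -0.29 to 0.018 for Cox6a1, -0.070 to 0.20 for Cox6b1, -0.25 to 0.17 for Cox6b2, -0.073 to 0.22 for Cox7b, -0.086 to 0.20 for Cox8a, -0.15 to 0.19 for Ndufa2, -0.33 to 0.0014 for Sdhc and -0.27 to 0.037 for Uqcr10.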
